A study of Mus musculus with 36 samples.

Results

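The 10 WNT ligand genes described here are Wnt3, Wnt3a, Wnt4, Wnt5a, Wnt5b, Wnt6, Wnt7a, Wnt7b, Wnt9a and Wnt10a. Each was taken by its gene name from the 3 expression tables of a mouse RNA-seq study of TGFβ and the transcription factor gene Rreb1. They are 10 of the 20960 gene names that these tables hold between them. All 10 were listed in the organoid table and in the embryoid body table. The table of pancreatic ductal adenocarcinoma (PDA) cells listed 8 of them, without Wnt3a and Wnt6. Of the 36 samples of the study, the 20 expression libraries were used, while 15 ChIP-seq libraries and 1 ATAC-seq library were not used here.

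The PDA libraries came from the KSIC_806 line, labelled WT or KO for Rreb1. WT and KO cells were each given the TGFβ receptor kinase inhibitor SB505124 (SB, 2.5 µM for 6 h) or TGFβ (100 pM for 1.5 h), and each of these 4 groups had 2 libraries. The PDA names also carry the mark S4, which the labels used here do not explain. E14 mouse embryonic stem cells labelled WT or KO for Rreb1 were profiled at day 0 and, as embryoid bodies (EBs), at day 4 of differentiation, again with 2 libraries in each of 4 groups, and "EB libraries" below covers both days. Organoids of pancreatic epithelial cells, labelled CIY, had 1 library in each of 4 conditions. These were grown without doxycycline (dox) or with 1 µg/mL dox from plating, and each was given SB or TGFβ on the PDA schedule. The labels used here do not say what dox controls in these organoids. A TGFβ library therefore differed from its SB library in both the agent and the time, and these cannot be told apart. Whether the 2 libraries of a group came from separate cultures, or each genotype from more than 1 clone, is not given, so p-values measure the spread between these libraries and the effect of the knockout cannot be told apart from that of the particular line.

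WNT ligands are secreted, lipid-modified glycoproteins. The acyltransferase Porcn attaches the lipid, the carrier Wls takes the ligand to the cell surface, and the secreted enzyme Notum removes the lipid again. Ligands such as Wnt3 and Wnt3a engage Frizzled receptors with Lrp5 or Lrp6, which stabilises β-catenin and switches on genes bound by TCF and LEF factors. Others, with Wnt5a as the best known, act largely without β-catenin, through Frizzled together with Ror receptors. Wnt3 is needed to form the primitive streak in the gastrulating mouse embryo. In epithelia, WNT ligands maintain progenitors and pattern ducts and appendages.

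Gene positions are those of the GRCm38.p6 annotation and cover the whole gene with its introns. Wnt3 lies on chromosome 11 from 103774175 to 103818021. Its span shares 1098 bases with Wnt9b, another WNT gene. Wnt3a, also on chromosome 11 (59248036 to 59290751), is a neighbour of Wnt9a (59306849 to 59333552), with 16097 bases between them. Wnt6 (74754342 to 74785322) and Wnt10a (74792019 to 74804176) are neighbours on chromosome 1, with 6696 bases between them. Wnt4 lies on chromosome 4 (137277635 to 137299501), Wnt5a on chromosome 14 (28504543 to 28527448) and Wnt7b on chromosome 15 (85535437 to 85581821). Chromosome 6 carries Wnt5b (119432531 to 119544824) and Wnt7a (91363981 to 91411353), which are not neighbours. The libraries did not keep strand, so reads where gene spans overlap cannot be assigned to one of them by strand. Wnt5b shares its span with Fbxl14, which held 1430 to 3291 normalized counts over the 20 libraries. Wnt7b shares its span with AU022754, whose highest value was 157.4.

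RefSeq promoter windows on GRCm38.p6 were on hand for 7 of the 10 genes, and not for Wnt5a, Wnt7b and Wnt10a. The bases just upstream of the start are shown for 4 of them. Wnt3 and Wnt3a are shown because their RNA differed between WT and KO EBs at day 4. Wnt7a and Wnt9a are shown because their RNA moved with TGFβ. Wnt4, Wnt5b and Wnt6 also differed between WT and KO EBs at day 4 and are not shown, so these 4 are a selection. Each run reads 5′ to 3′ on the gene's own strand, and capitals mark a motif match.
Wnt3 (chr11:103773925-103774174, plus strand): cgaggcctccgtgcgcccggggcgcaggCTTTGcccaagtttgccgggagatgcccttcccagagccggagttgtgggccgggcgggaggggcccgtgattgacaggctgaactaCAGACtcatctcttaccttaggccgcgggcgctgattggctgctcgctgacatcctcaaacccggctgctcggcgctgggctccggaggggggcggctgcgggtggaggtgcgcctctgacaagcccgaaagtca
Wnt3a (chr11:59290752-59291001, minus strand): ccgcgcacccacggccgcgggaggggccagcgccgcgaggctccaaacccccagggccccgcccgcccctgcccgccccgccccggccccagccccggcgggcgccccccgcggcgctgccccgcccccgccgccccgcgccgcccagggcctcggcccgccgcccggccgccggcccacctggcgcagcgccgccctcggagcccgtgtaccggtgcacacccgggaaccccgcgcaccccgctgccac
Wnt7a (chr6:91411354-91411603, minus strand): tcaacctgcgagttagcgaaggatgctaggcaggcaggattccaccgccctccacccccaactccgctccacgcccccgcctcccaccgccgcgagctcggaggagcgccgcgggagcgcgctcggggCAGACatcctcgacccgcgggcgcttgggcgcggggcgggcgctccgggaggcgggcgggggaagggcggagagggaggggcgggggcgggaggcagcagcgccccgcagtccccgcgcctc
Wnt9a (chr11:59306680-59306848, plus strand): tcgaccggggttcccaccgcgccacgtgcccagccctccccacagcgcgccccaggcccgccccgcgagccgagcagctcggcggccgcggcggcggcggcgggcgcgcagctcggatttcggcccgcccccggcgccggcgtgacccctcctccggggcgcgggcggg
The Wnt9a run stops after 169 bases, where the annotated gene begins. The Wnt3 run lies inside the span of a Wnt9b gene model.

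Windows of 250 bases upstream were searched on both strands for CTTTG, the core of the site bound by TCF and LEF factors, for CAGAC, the SMAD box, and for ACCACCCC, the core of an RREB1 motif. These letter strings do not overlap each other. The Wnt3 window held 1 CTTTG and 1 CAGAC, and the Wnt7a window held 1 CAGAC. Wnt5b has 3 such windows, all inside its annotated span, of which 1 held 1 CTTTG and 1 CAGAC, 1 held 2 CTTTG and 1 CAGAC, and 1 held none. Wnt3a, Wnt4, Wnt6 and Wnt9a held no match in this window. The Wnt6 window also lies inside its annotated span, and the Wnt9a window runs past the annotated start of its gene. For comparison, CTTTG stood in 48.6%, CAGAC in 42.2% and ACCACCCC in 1.3% of all 32851 windows of that length. A match is a string of letters and not a measured site. G and C made up 68.0% of the window for Wnt3, 77.6% for Wnt7a, 84.4% for Wnt9a and 87.6% for Wnt3a, 85.2% for Wnt4, 79.6% for Wnt6 and 53.2% to 75.2% for the Wnt5b windows, against a median of 52.4% over all windows. The Wnt3, Wnt7a, Wnt9a and Wnt3a windows held 22, 34, 48 and 41 CpG pairs, against a median of 6.

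Depth was 38.73 to 44.5 M reads in 7 of the 8 PDA libraries and 20.41 M in KO SB replicate 1. EB libraries held 19.89 to 29.08 M and organoid libraries 23.91 to 35.81 M. Rreb1 RNA was not lower in the libraries labelled KO. It was 1458 and 1501 normalized counts in WT SB PDA cells, against 2164 and 2195 in KO SB. At EB day 0 it was 1085 and 1019 in WT against 2642 and 2830 in KO. Which part of Rreb1 was altered is not given here, so a total over the gene does not check the deletion, and WT and KO below are the labels' names. Epithelial markers (7 of 7 listed) summed to 383600 to 608700 in the PDA libraries and to 209200 to 279600 in the organoids. Pluripotency markers summed to 132100 to 145600 in the day 0 libraries.

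The 3 tables were normalized separately, so levels across culture systems are given as RPM, the recovered reads of a gene per 1 M reads of its library, and only within a gene. Wnt7b, a ligand of lung and placental epithelium, ran from 459.7 to 761.3 RPM in the organoids, from 11.07 to 222.6 in the PDA cells and from 4.079 to 18.44 in the EBs, so these ranges overlapped only between PDA cells and EBs. Wnt5b, a close paralog of Wnt5a, ran from 15.86 to 143.3 in the organoids and did not pass 0.0995 in any PDA library. Wnt4, known for its part in kidney tubules and the female gonad, was also higher in every organoid library (30.69 to 85.27) than in any EB (1.083 to 6.246) or PDA library (0.049 to 2.453). Wnt10a, a ligand of teeth and skin appendages, was likewise highest in the organoids, with 17.17 to 48.08 in the organoids, 0.576 to 5.752 in the PDA cells and 0.0838 to 0.340 in the EBs.

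Wnt3, Wnt3a and Wnt6 reached their highest values in the EBs. Wnt3 ran from 0.659 to 23.96 RPM in the EBs and did not pass 0.0559 elsewhere. Wnt3a, a ligand of paraxial mesoderm and the tail bud, was detected in every EB library (0.12 to 1.336) and in no organoid library. Wnt6, an epithelial ligand, reached 2.683 in the EBs and 0.7065 in the organoids. For Wnt5a the EBs ran from 2.006 to 44.24, overlapping the PDA range (0.96 to 9.556) and the organoid range (1.48 to 3.978). The ranges of Wnt9a, a ligand of developing joints, overlapped in all 3 systems, at 0.441 to 14.67, 1.732 to 10.75 and 2.431 to 6.624 in PDA cells, organoids and EBs. Wnt7a, a ligand of the dorsal limb and the female reproductive tract, reached its highest value in PDA cells (37.78 to 98.29), with an overlapping range in the organoids (6.442 to 80.49), and did not pass 0.869 in the EBs.

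**Figure D1:**
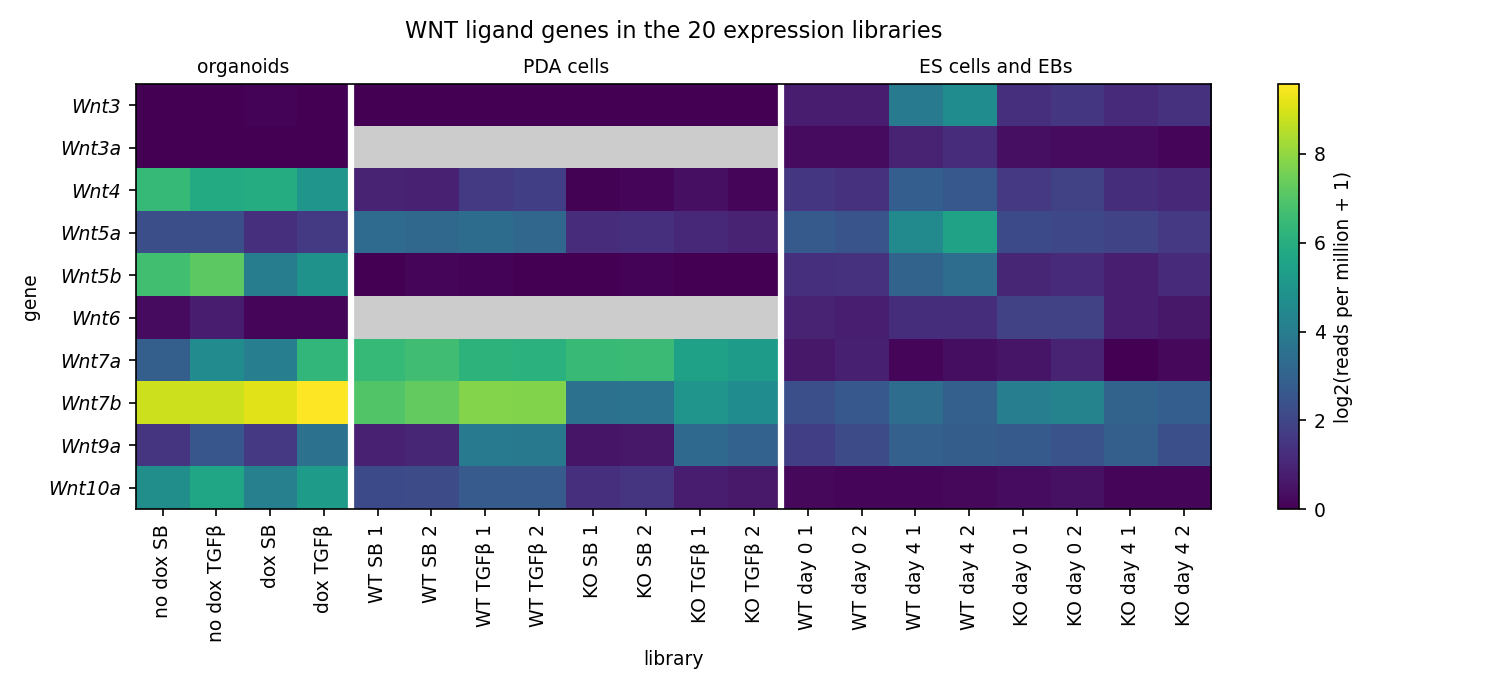
Heat map of the 10 WNT ligand genes (rows) in the 20 expression libraries (columns), coloured by log2(RPM + 1), with grey where a table does not list the gene. Brighter colours are higher values. Wnt7b is brightest across the 4 organoid libraries, and Wnt3 stands out only in the 2 WT EB libraries at day 4.

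In the PDA cells, values below are the deposited normalized counts, and a change means an adjusted p under 0.05 from limma on log2(value + 1) over all 13226 genes with at least 10 in at least 2 libraries. Of the 8 listed members, 6 passed that filter. Wnt3 reached no more than 0.918 and Wnt5b no more than 3.65, which is 0 to 4 reads a library, and neither is compared. Wnt4 passed through the WT libraries where it was high, so counts over the 6 are a description of these libraries, and its genotype differences are given with the adjusted p of the fit without a filter. All 5 PDA comparisons drew on the same 8 libraries, so they are not independent of each other.

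In WT PDA cells, Wnt9a rose most among the members under TGFβ, Wnt7b, Wnt10a and Wnt4 rose less, and Wnt7a fell. Wnt9a was 31.2 and 38.3 under SB and 524.6 and 493.4 under TGFβ, far outside the spread of either pair. This was a log2 difference of 3.84 ± 0.17 (SE, n = 2 libraries a group, limma adjusted p 7.3e-06), or 14.3-fold. Wnt7b was 4581 and 5594 under SB against 7961 and 7663 under TGFβ (0.63 ± 0.13, adjusted p 0.00924). Wnt10a went from 126.7 and 132.2 to 205.7 and 203.6 (0.66 ± 0.16, adjusted p 0.0169). In these 3 genes the TGFβ libraries all lay above the SB libraries.

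Wnt4 was low throughout, at 34.9 and 30.1 under SB and 75.4 and 87.9 under TGFβ (1.30 ± 0.42, limma adjusted p 0.046). Wnt7a went the other way, from 3128 and 3604 to 2602 and 2479, a log2 difference of −0.40 ± 0.10 (adjusted p 0.0151). Wnt5a showed no change that passed the test, with 343 and 308 under SB and 342 and 284 under TGFβ (−0.06 ± 0.15, adjusted p 0.786). In all, 5 of the 6 members were called, where 36.9% of all tested genes were (19.4% higher and 17.6% lower), and their median difference was 0.64 against 0.00 over all genes. Fibroblast markers (7 of 8 listed) summed to 73.9 to 94.5 in the WT SB libraries and 388.8 to 433.6 under TGFβ, and to 130.3 to 134.8 and 410.1 to 426 in KO, with Col1a2, Pdgfrb and Thy1 at 0 in the TGFβ libraries of both genotypes. Their part in these results was not tested. Without WT TGFβ replicate 1, and likewise without replicate 2, Wnt9a was the only member called, and without WT SB replicate 1 there were 3. The call of Wnt4 was also lost without WT SB replicate 2, without either KO SB library, without a filter, at a pseudocount of 0.5 and after quantile normalization.

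**Figure D2:**
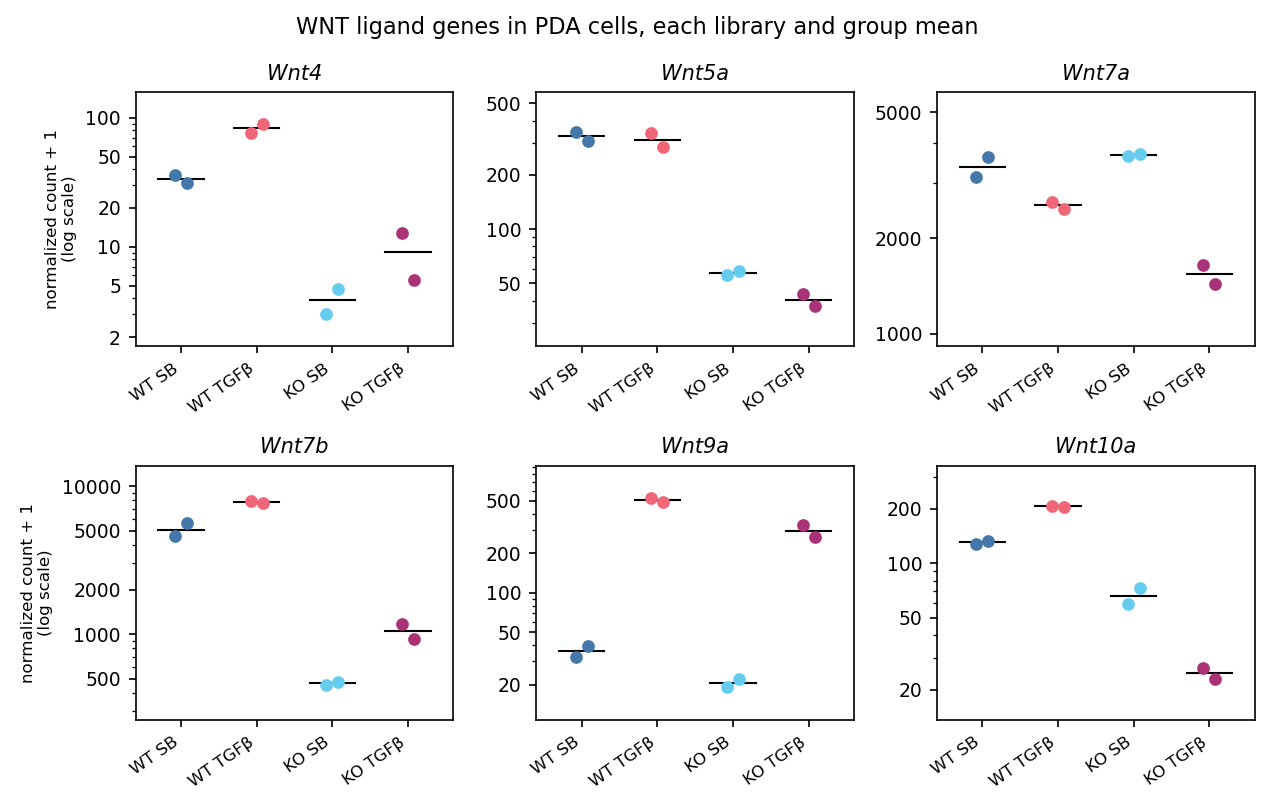
Normalized count + 1 on a log axis for the 6 WNT genes that passed the filter in PDA cells. Libraries are grouped by genotype and treatment, with a dot per library and a bar at the group mean. The TGFβ libraries of Wnt9a lie above the SB libraries in both genotypes, and Wnt5a, Wnt4 and Wnt7b lie lower in KO than in WT.

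In PDA cells labelled KO, Wnt9a and Wnt7b again rose under TGFβ, but Wnt10a, Wnt7a and Wnt5a fell. Wnt9a was 18.1 and 21.1 under SB and 324.5 and 266.4 under TGFβ (3.84 ± 0.17, limma adjusted p 5.87e-06), or 14.4-fold. Wnt7b went from 454.6 and 473.5 to 1176 and 922.9 (1.17 ± 0.13, adjusted p 0.00048). For Wnt10a the values were 58.3 and 71.6 under SB and 25.4 and 21.8 under TGFβ (−1.42 ± 0.16, adjusted p 0.00049). Wnt10a RNA thus rose under TGFβ in WT cells and fell in KO cells.

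Wnt7a was 3647 and 3684 under SB in KO cells and 1651 and 1432 under TGFβ, a log2 difference of −1.25 ± 0.10 (limma adjusted p 7.48e-05). Wnt5a, the ligand acting mostly without β-catenin, was 54.3 and 57.8 against 42.6 and 36.4 (−0.50 ± 0.15, adjusted p 0.0366). Wnt4 stood at 2.01 and 3.67 under SB and at 11.8 and 4.55 under TGFβ, and its difference of 1.17 ± 0.42 did not pass (adjusted p 0.064). Thus 5 of 6 members were called, against 38.7% of tested genes (20.6% higher and 18.0% lower). The median over the 6 was 0.33 against 0.02 over all genes. The call of Wnt5a was lost with edgeR (adjusted p 0.0626) and DESeq2 (0.182), without a filter, after rescaling all libraries to one total, and without either WT TGFβ library, either KO SB library or KO TGFβ replicate 2 (0.058 to 0.153). Wnt4 passed without KO TGFβ replicate 2 (1.77, adjusted p 0.0117) and after rescaling (0.0478).

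The difference between the KO and the WT response to TGFβ, tested as an interaction, was called for Wnt10a and Wnt7a only. It was −2.08 ± 0.23 on the log2 scale for Wnt10a (limma adjusted p 0.00181), whose direction was opposite in the genotypes. For Wnt7a it was −0.85 ± 0.14 (adjusted p 0.00643), which is a larger fall in KO. These 2 of 6 members compare with 21.8% of tested genes (9.71% higher and 12.1% lower). Wnt9a gave 0.00 ± 0.24 with a 95% interval of −0.57 to 0.57 (adjusted p 0.994), and differences within that interval were not resolved. Wnt7b gave 0.54 ± 0.19 (adjusted p 0.0789) and passed with DESeq2 (0.0401), without WT SB replicate 1 (0.0342) and without KO TGFβ replicate 2 (0.028). Wnt5a gave −0.44 ± 0.22 (adjusted p 0.192) and Wnt4 −0.14 ± 0.60 (adjusted p 0.892).

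Comparing genotypes under SB, KO cells held much less Wnt7b, Wnt4 and Wnt5a than WT cells, and somewhat less Wnt10a and Wnt9a. The Wnt7b difference was −3.45 ± 0.13 (limma adjusted p 1.61e-06), or 10.9-fold lower in KO. It was −3.15 ± 0.42 for Wnt4 (adjusted p 0.00139 without a filter), where the KO libraries held 1 and 4 reads, and −2.26 with a pseudocount of 5. For Wnt5a it was −2.52 ± 0.15 (adjusted p 1.17e-05). In each of these 3 genes every KO library lay below every WT library. Wnt10a differed by −0.99 ± 0.16 (adjusted p 0.0015) and Wnt9a by −0.79 ± 0.17 (adjusted p 0.00574, and 0.0587 with DESeq2). For Wnt7a the difference of 0.13 ± 0.10 did not pass (adjusted p 0.3), with a 95% interval of −0.10 to 0.35. So 5 of the 6 members were lower, against 56.2% of tested genes called, 28.9% higher and 27.2% lower. Their median was −1.75 against 0.00 over all genes.

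Under TGFβ all 6 tested members were lower in KO than in WT cells, where 40.2% of tested genes were called, 21.2% higher and 19.0% lower. Wnt4 differed by −3.29 ± 0.42 (limma adjusted p 0.00158 without a filter), or by −2.69 and −3.89 without KO TGFβ replicate 2 and 1, and Wnt10a by −3.07 ± 0.16 (adjusted p 6.61e-06). Wnt5a differed by −2.95 ± 0.15 (adjusted p 6.11e-06) and Wnt7b by −2.91 ± 0.13 (adjusted p 3.26e-06). The smaller differences were −0.79 ± 0.17 for Wnt9a (adjusted p 0.00848) and −0.72 ± 0.10 for Wnt7a (adjusted p 0.000749). Wnt9a lost its call without WT TGFβ replicate 1 (adjusted p 0.0728) or 2 (0.0508) and without KO TGFβ replicate 2 (0.0543). The median over the 6 was −2.93 against −0.02 over all genes. Most cell type marker sums differed between the genotypes too. Epithelial markers (7 of 7 listed) summed to 383600 to 470500 in WT and 496800 to 608700 in KO, with Cldn7 at 0 in the KO SB libraries. Pancreatic duct markers (6 of 6 listed) summed to 90440 to 108400 in WT and 120300 to 156000 in KO, and Krt19 is on both lists. Immune markers (4 of 6 listed) overlapped, at 132 to 150.5 in WT and 124.6 to 175 in KO. Endothelial markers (4 of 4 listed) summed to 45.9 to 60.7 in WT and 932 to 1364 in KO, with Tek at 0 in the WT SB and Kdr at 0 in the KO SB libraries. Neuroectoderm markers (2 of 4 listed) summed to 1080 to 1246 in WT and 18.1 to 25.7 in KO. Endoderm markers (5 of 5 listed) summed to 5607 to 5669 in WT SB, 2417 to 2436 in WT TGFβ, 11110 to 11950 in KO SB and 4567 to 4949 in KO TGFβ libraries. Primitive streak markers (4 of 7 listed) summed to 137.9 to 207.4 in WT and 13.6 to 19.3 in KO, pluripotency markers (5 of 7 listed) to 1736 to 1918 and 3601 to 6519, and acinar markers (2 of 5 listed) to 137.7 to 182.4 and 326.7 to 605.4. Of these markers, Pou5f1, Zfp42 and Mixl1 were at 0 in all WT libraries and T and Nanog in all KO libraries. Zfp42 was also at 0 in the KO SB libraries and Nanog in the WT TGFβ libraries. The pluripotency sums therefore came from only part of that list. The part of these in the WNT differences was not tested. In bulk libraries such as these, fewer cells making a ligand and less RNA per cell cannot be told apart.

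In the EBs, 9 of the 10 members passed the same filter among 15227 tested genes, and Wnt10a, at 1.92 to 8.61, did not. Wnt3a passed through the WT day 4 libraries alone and Wnt7a through the day 0 libraries. Counts over the 9 are therefore again a description, and called differences of these 2 genes are given with the adjusted p of the fit without a filter. The 5 EB comparisons shared their 8 libraries in the same way.

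Between day 0 and day 4, WT cells gained RNA of the gastrulation ligands Wnt3 and Wnt3a, of Wnt5a, Wnt5b and Wnt4, and to a smaller degree of Wnt9a and Wnt7b. Wnt3 went from 15.9 and 17.0 to 338 and 552, a log2 difference of 4.64 ± 0.26 (limma adjusted p 1.86e-09), or 24.9-fold. Wnt3a went from 4.96 and 4.84 to 21.1 and 30.8 (2.17 ± 0.45, adjusted p 0.00158 without a filter). In both genes the day 4 libraries lay above the day 0 libraries, and replicate 2 was the higher of the day 4 libraries in each. The overlapping Wnt9b, given only for that overlap, was 20.2 and 29.8 at WT day 4 and no more than 2.26 in the other EB libraries.

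Wnt5a, which drives outgrowth of the body axis, went from 134 and 111 to 528 and 1019 in WT (2.58 ± 0.25, limma adjusted p 6.94e-07). Its paralog Wnt5b went from 34.7 and 37.5 to 166 and 227 (2.39 ± 0.28, adjusted p 4.54e-06). Wnt4 went from 44.6 and 37.5 to 143 and 119 (1.65 ± 0.24, adjusted p 3.49e-05). None of these day 4 values overlapped day 0. Wnt9a was 58.5 and 88.4 at day 0 and 152 and 138 at day 4 (1.00 ± 0.24, adjusted p 0.00212), and Wnt7b was 98.2 and 126 against 223 and 153 (0.73 ± 0.19, adjusted p 0.00342).

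Wnt7a was the member that fell in WT EBs, from 12.9 and 19.4 to 1.92 and 6.53 (−1.84 ± 0.70, limma adjusted p 0.0332, and 0.0632 without a filter). Wnt6 was 22.8 and 18.2 at day 0 and 31.7 in both day 4 libraries, which did not pass (0.61 ± 0.28, adjusted p 0.0724, and 0.0496 after rescaling to the same total). In all 8 of the 9 members were called, 7 of them higher, where 63.1% of all tested genes were called, 32.3% higher and 30.8% lower. Their median was 1.65 against 0.00. The call of Wnt7a was also lost at a pseudocount of 0.5, without either WT day 0 library (adjusted p 0.0612 and 0.164) and without WT day 4 replicate 1 (−1.16, adjusted p 0.292). Wnt7b lost its call without WT day 0 replicate 1 (0.0517) and without WT day 4 replicate 1 (0.0865).

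**Figure D3:**
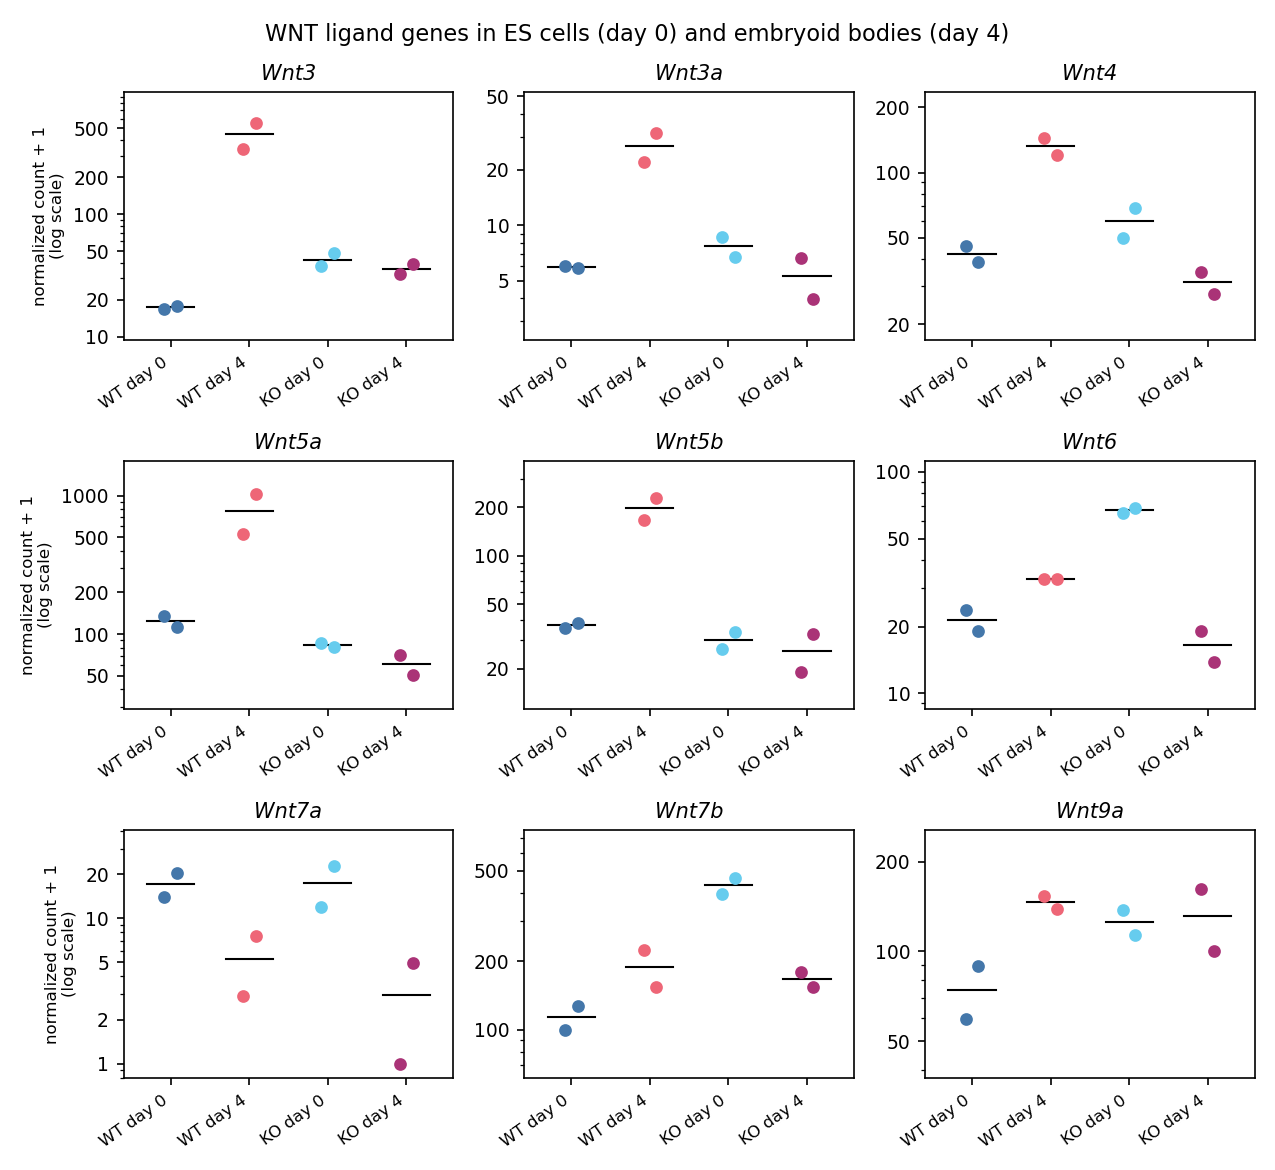
Normalized count + 1 on a log axis for the 9 WNT genes that passed the filter in EBs. Libraries are grouped by genotype and day, with a dot per library and a bar at the group mean. Wnt3, Wnt5a, Wnt5b and Wnt4 rise from day 0 to day 4 in WT, where the KO day 4 dots stay near or below the KO day 0 dots.

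In cells labelled KO none of the 9 members rose from day 0 to day 4, and 4 fell, against 60.0% of tested genes called, 29.1% higher and 30.9% lower. Wnt7b went from 396 and 467 to 178 and 154 (−1.37 ± 0.19, limma adjusted p 1.96e-05). Wnt6 went from 64.5 and 67.9 to 18.1 and 12.8 (−2.05 ± 0.28, adjusted p 2.53e-05). Wnt4 went from 49.2 and 67.9 to 33.9 and 26.6 (−0.92 ± 0.24, adjusted p 0.00437). These 3 genes stood lower in both day 4 libraries than in both day 0 libraries. Wnt7a, at 11.0 and 21.99 against 0 and 3.94, differed by −2.90 ± 0.70 (adjusted p 0.00914 without a filter). Leaving out KO day 4 replicate 1 or 2 moved that value to −1.75 or −4.06. Wnt4 lost its call without KO day 0 replicate 2 (adjusted p 0.0612).

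The gastrulation ligands showed no change that passed in KO cells. Wnt3 was 36.5 and 46.9 at day 0 and 31.7 and 38.4 at day 4 (limma adjusted p 0.443). Wnt3a was 7.63 and 5.74 against 5.66 and 2.96 (adjusted p 0.294). Wnt5a was 84.8 and 80.3 against 70.2 and 49.3 (adjusted p 0.114, and 0.0458 after quantile normalization). Wnt5b was 25.4 and 32.5 against 18.1 and 31.5 (adjusted p 0.454). Wnt3 and Wnt5b overlapped between the days, and the day 4 libraries of Wnt3a and Wnt5a lay below those of day 0. Wnt9a was 137 and 113 against 161 and 99.5 (adjusted p 0.93). The median over the 9 members was −0.57 against −0.02 over all genes.

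The change from day 0 to day 4 was smaller or more negative in KO than in WT for 8 of the 9 members, tested as an interaction, against 55.7% of tested genes called, 27.1% higher and 28.6% lower. Wnt3 gave −4.88 ± 0.36 (limma adjusted p 9.96e-08) and Wnt5a −3.06 ± 0.36 (adjusted p 7.04e-06). Wnt3a gave −2.74 ± 0.64 (adjusted p 0.00406 without a filter), or −1.97 with a pseudocount of 5. Wnt6, Wnt5b, Wnt4 and Wnt7b lay between −2.66 and −2.10, with adjusted p from 1.29e-05 to 7.19e-05. Wnt9a gave −0.97 ± 0.34 (adjusted p 0.0241). Its call was lost without a filter (0.0564) and without WT day 0 replicate 1, either WT day 4 library, KO day 0 replicate 1 or KO day 4 replicate 2 (0.08 to 0.123). Wnt7a gave −1.06 ± 0.99 (adjusted p 0.381), and passed without KO day 4 replicate 2 (−2.21, adjusted p 0.0493).

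**Figure D4:**
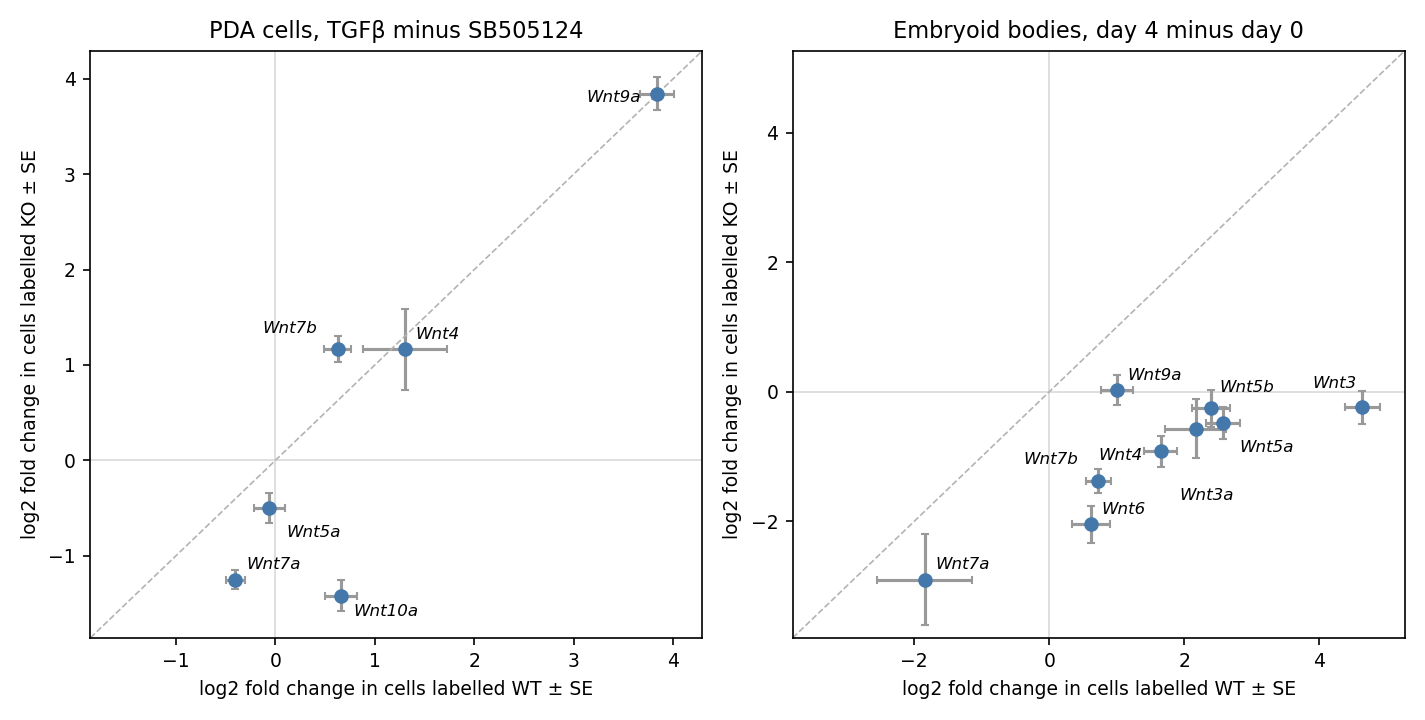
Log2 difference ± SE of each tested WNT gene in WT (x axis) against KO (y axis), for TGFβ minus SB in PDA cells on the left and day 4 minus day 0 in EBs on the right, with a dashed line where the genotypes would be equal. Wnt9a lies on the line in PDA cells and Wnt10a and Wnt7a below it, and in the EBs Wnt3, at 4.64 in WT, lies farthest below it.

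The genotypes already differed at day 0, when 4 members were higher in KO, against 67.2% of tested genes called, 33.9% higher and 33.3% lower. Wnt7b differed by 1.94 ± 0.19 (limma adjusted p 4.61e-07), Wnt6 by 1.65 ± 0.28 (adjusted p 0.000133) and Wnt3 by 1.28 ± 0.26 (adjusted p 0.000499). Every KO library of these 3 genes lay above every WT library at day 0. Wnt9a differed by 0.78 ± 0.24 (adjusted p 0.00988), and lost the call without WT day 0 replicate 1 (0.48, adjusted p 0.139) or KO day 0 replicate 1 (0.0786). The difference was not called for Wnt4 (0.49, adjusted p 0.0875), Wnt5a (−0.56, adjusted p 0.0626), Wnt5b, Wnt3a and Wnt7a. Wnt4 passed after quantile normalization (0.0135) and without KO day 0 replicate 1 (0.0436). Wnt5a passed, as lower in KO, after libraries were rescaled to an equal total (0.0455) and without WT day 4 replicate 1 (0.034) or 2 (0.0363). The median over the 9 was 0.49 against 0.00.

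At day 4, 6 of 9 members were lower in KO, against 56.2% of tested genes called, 27.8% higher and 28.4% lower. Wnt5a differed by −3.62 ± 0.25 (limma adjusted p 2.48e-08), or 12.3-fold, and Wnt3 by −3.59 ± 0.26 (adjusted p 3.24e-08), or 12.1-fold. Wnt5b differed by −2.97 ± 0.28 (adjusted p 6.54e-07), Wnt3a by −2.37 ± 0.45 (adjusted p 0.00109 without a filter) and Wnt4 by −2.08 ± 0.24 (adjusted p 4.58e-06). In each of these 5 genes the KO libraries lay below both WT libraries. Wnt6 differed by −1.01 ± 0.28 (adjusted p 0.00728), and lost the call after quantile normalization (−0.54, adjusted p 0.118) and without KO day 4 replicate 2 (0.0591). Wnt7b (−0.16, adjusted p 0.485), Wnt9a (−0.19, adjusted p 0.511) and Wnt7a (−1.08, adjusted p 0.207) did not pass, and Wnt7a passed without KO day 4 replicate 2 (−2.23, adjusted p 0.0154). The median over the 9 was −2.08 against −0.01.

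Markers of streak, endoderm, fibroblast and epithelial cells were highest at WT day 4, where Wnt3, Wnt3a, Wnt4, Wnt5a and Wnt5b were also highest. Wnt6 and Wnt7b were highest at KO day 0. Neuroectoderm markers at WT day 4 overlapped those at day 0 and were higher than at KO day 4. Epithelial markers (7 of 7 listed) summed to 22660 to 23150 at WT day 0 and 33090 to 34850 at WT day 4. In KO they summed to 19000 to 19820 at day 0 and 22100 to 24400 at day 4. Primitive streak and early mesoderm markers (7 of 7 listed) summed to 164.7 and 202.3 at WT day 0, 4208 and 7119 at WT day 4, 200.2 and 183.6 at KO day 0, and 770.7 and 790.5 at KO day 4. Endoderm markers (5 of 5 listed, with Afp and Ttr at 0 at WT day 0) summed to 35.7 and 53.3, 3308 and 2587, 17.0 and 23.0, and 24.9 and 29.6 in the same order. Fibroblast markers (8 of 8 listed) summed to 644.9 to 658.9, 3682 to 4907, 519.2 to 687.1 and 621.9 to 834.1, with Dcn and Lum at 0 in WT day 0 libraries. Neuroectoderm markers (4 of 4 listed, with Neurog2 at 0 at WT day 0) summed to 1465 and 1586, 1537 and 1618, 1613 and 1591, and 544.3 and 498.7 in that order, so they were lower at KO day 4. Pluripotency markers (7 of 7 listed) went from 144400 and 145600 to 46770 and 44620 in WT and stood at 81470 and 85190 at KO day 4. Immune markers (5 of 6 listed) were highest at KO day 4, at 1009 to 1304 against 608.9 to 811.1 at WT day 4. Endothelial markers (4 of 4 listed) were highest at KO day 0, at 6032 to 6185. At day 4 the endothelial markers summed to 3103 to 4961 in WT and 3419 to 3448 in KO. The WT day 4 library with the higher streak and fibroblast sums, replicate 2, was also the higher for Wnt3, Wnt3a, Wnt5a, Wnt5b and Wnt7a. That library was the lower for Wnt4, Wnt7b and Wnt9a and for the endoderm sum. The part of these cell types in the WNT differences was not tested.

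The organoids had 1 library per condition, so there was no test. Ratios below are on the log2(value + 1) scale, each with an exact 95% interval for the counting error of its reads and for no other error. Fibroblast markers (7 of 8 listed) summed to 10.4 to 63.1 in the 4 libraries. Of the 10 members, 7 had a mean of at least 10. Wnt3a was at 0 in all 4 libraries, where 3 reads would have been a value of 2.23 to 3.4. Wnt3 held 1.49 in the dox SB library and 0 in the others. Wnt6 held 6.05 and 19.96 without dox (SB, then TGFβ) and 2.98 and 2.26 with dox.

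Without dox, the TGFβ organoid library held more Wnt7a, Wnt9a and Wnt10a than the SB library and less Wnt4. Wnt7a was 183 under SB and 672 under TGFβ, a log2 ratio of 1.87 (counting interval 1.65 to 2.11). Wnt9a was 49.2 and 140 (1.49, 1.05 to 1.98). These 2 of 7 members were past 2-fold, against 6.41% of the 13443 genes at that mean (3.56% higher and 2.85% lower). Wnt10a was 732 and 1358 (0.89, 0.77 to 1.02), and Wnt5b was 2869 and 4050 (0.50). Wnt4 was lower under TGFβ, at 2424 and 1608 (−0.59, −0.68 to −0.50). Wnt5a, at 111 and 112, and Wnt7b, at 13140 and 12990, were nearly level. The median of the 7 ratios was 0.50 against 0.00 over all genes.

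With dox the TGFβ library again held more Wnt9a, Wnt7a and Wnt10a, and 3 of 7 members were past 2-fold, against 6.75% of genes (3.52% higher and 3.24% lower). Wnt9a was 52.8 under SB and 291 under TGFβ (2.44, 2.08 to 2.86). Wnt7a was 423 and 2179 (2.36, 2.23 to 2.50), and Wnt10a 457.5 and 1039 (1.18, 1.03 to 1.33). In these 3 genes the ratio was above that without dox. Wnt5b was 423 and 775 (0.87) and Wnt7b 15240 and 20610 (0.44). Wnt5a was 39.4 and 55.4, and its interval of −0.10 to 1.08 covered 0. Wnt4 was again lower, at 1603 and 831 (−0.95, −1.07 to −0.83). The median ratio was 0.87 against −0.02.

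Between the dox and no dox libraries, Wnt5b and Wnt5a were lower and Wnt7a higher with dox under either agent. Wnt5b had a log2 ratio of −2.76 under SB (−2.89 to −2.63) and −2.38 under TGFβ. Wnt5a had −1.48 (−1.99 to −1.03) and −1.01. Wnt7a had 1.20 under SB and 1.69 under TGFβ. These were the 3 members past 2-fold under SB, against 17.5% of genes (7.93% higher and 9.57% lower). Wnt9a was level under SB (0.10, −0.42 to 0.63) and higher with dox under TGFβ (1.05, 0.75 to 1.37), so 4 members were past 2-fold there, against 17.4% of genes (7.84% higher and 9.60% lower). That count became 3 with a pseudocount of 5, on rescaling to the same total and with TMM scaling, under which Wnt5a came short of 2-fold. Wnt4 was lower with dox, at −0.60 and −0.95, and Wnt10a at −0.68 and −0.39. Wnt7b was slightly higher, at 0.21 and 0.67. The medians were −0.60 and −0.39 against 0.00 and −0.01 over all genes.

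**Figure D5:**
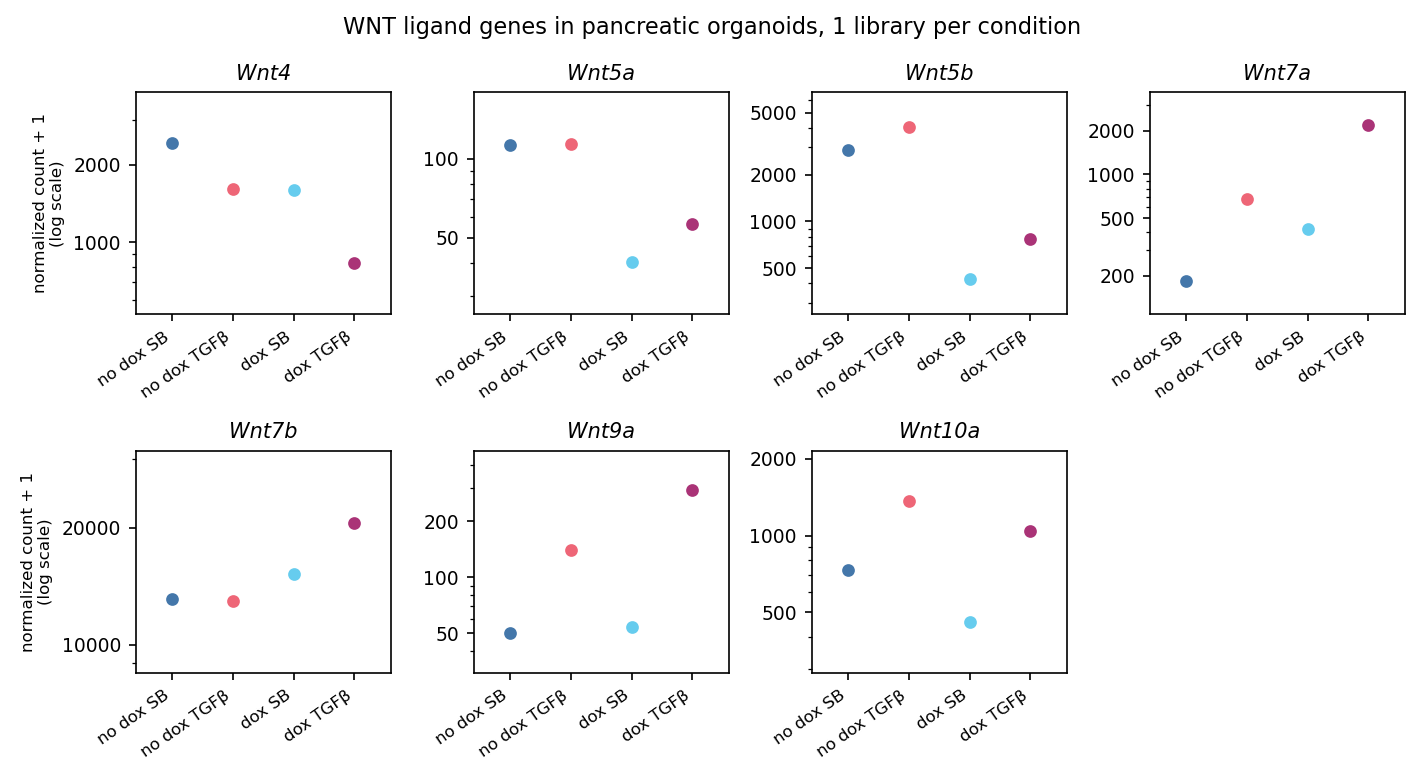
Normalized count + 1 on a log axis for the 7 WNT genes that passed the mean filter in the 4 organoid libraries. Each condition has 1 dot and no replicates. Wnt7a and Wnt9a are higher in each TGFβ library than in its SB library, and Wnt5b is lower in both dox libraries.

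Over the 4 pairs of TGFβ and SB conditions in the pancreatic cultures, Wnt9a was higher under TGFβ in all 4, with log2 differences of 3.84 in WT and 3.84 in KO PDA cells and ratios of 1.49 and 2.44 in the organoids without and with dox. Wnt10a was higher in 3 of 4 and lower only in KO PDA cells. Wnt7b was also higher in 3 of 4, and its exception was the organoids without dox, at −0.02. Wnt7a went in opposite directions in the culture systems, at −0.40 and −1.25 in PDA cells and 1.87 and 2.36 in the organoids. Wnt4 also split by system, at 1.30 and 1.17 in PDA cells and −0.59 and −0.95 in the organoids. Differences between the culture systems were not tested, since the organoids have no replicates.

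The other genes of the WNT pathway were counted from lists of the other 9 ligands, 6 lipidation and secretion genes, 18 receptors and 17 inhibitors. Lists of 9 R-spondin and LGR genes and 14 β-catenin target genes were also counted. Some list genes passed the filter only through the groups where they were high. Among these were Axin2 and Notum in PDA cells and Wnt2 in EBs. Counts and medians over the lists are therefore a description of these libraries, as for the members. In WT PDA cells under TGFβ, where 19.4% of all tested genes rose and 17.6% fell, 1 of 2 tested ligands rose. Among the secretion genes 3 of 6 fell, of the receptors 3 of 15 rose and 1 fell, a share called below that of all genes, and of the R-spondin group 4 of 6 rose. Of the 3 tested inhibitors 1 rose and 2 fell, and of 6 β-catenin targets 2 rose and 1 fell. Wnt10b, another ligand of skin appendages, held 51 reads in the WT TGFβ libraries against 2 under SB, a ratio of 24.2 with a counting interval of 6.37 to 205.5. Ror1, a receptor for Wnt5a, averaged 88.3 ± 15.3 (SD, n = 2) under SB and 423.6 ± 4.42 under TGFβ in WT (2.26 ± 0.15, limma adjusted p 4.15e-05). Tmed2, a cargo carrier of the early secretory route, fell by 0.74 on the log2 scale (adjusted p 0.00104). Kremen1, a Dkk receptor, was the inhibitor that rose, by 0.37 (adjusted p 0.0123), while the other two tested, Apcdd1 and Dkk2, fell.

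In KO PDA cells under TGFβ, where 20.6% of all tested genes rose and 18.0% fell, 2 of 6 secretion genes fell, led by Tmed5, another such carrier (−1.24, limma adjusted p 4.15e-05). Of 15 receptors 4 rose and 4 fell, and of the R-spondin group 2 of 6 rose, led by the R-spondin receptor Lgr4 (1.43, adjusted p 3.02e-05). Of 6 tested β-catenin targets 3 rose and 0 fell. In the interaction 2 of these 6 were called higher, against 9.71% of all tested genes. Of the other ligands 1 of 2 rose, and of the 3 tested inhibitors 0 were called. Between genotypes under SB, 8 of 15 receptors were higher in KO and 5 lower, against 28.9% and 27.2% of all tested genes, with Fzd4 (1.56, adjusted p 2.35e-05) and Fzd5 (0.98, adjusted p 4.91e-05) the clearest. Of the β-catenin targets 5 of 6 tested were lower in KO under SB and 4 of 6 under TGFβ, where 19.0% of all genes were lower, with medians of −2.51 and −1.83. The transcription factor gene Tcf7 averaged 273 in WT and 30.5 in KO under SB (−3.13, adjusted p 4.2e-06). Axin2, a feedback inhibitor of β-catenin, was 15.6 and 19.1 in WT SB and 40.2 and 40.7 in WT TGFβ libraries and was at 0 in all 4 KO libraries. At a floor of 3 reads over the group, it was at least 9.2-fold lower in KO under SB and at least 29.7-fold lower under TGFβ. Of the 17 inhibitors 3 were tested, and 2 of these, Dkk2 and Apcdd1, were lower in KO under SB. Dkk2 was at 502 in WT and 18.5 in KO under SB (−4.73, limma adjusted p 3.79e-06). Apcdd1, which is also on the β-catenin target list, was at 6954 and 1888 (−1.88, adjusted p 9.9e-07). Rnf43, an E3 ligase that removes Frizzled receptors, differed by −1.32 under SB (adjusted p 0.000182) and Lgr6 by −1.46 under TGFβ (adjusted p 8.11e-05). Notum, on both the secretion and the β-catenin target lists, held 91 reads in WT and 1 in KO under TGFβ. The ratio was 87.2, with a counting interval of 15.2 to 3480.

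In WT EBs most genes of 4 of the 6 lists rose by day 4, where 32.3% of all tested genes rose and 30.8% fell. Of the other ligands 8 of 9 rose (median 3.34), of the secretion genes 5 of 6, of the receptors 15 of 18 (median 0.60), and of the β-catenin targets 11 of 14 (median 0.88). Of the R-spondin group 4 of 8 rose and 1 fell, and of the inhibitors 5 of 12 rose and 5 fell (median 0.17). Wls, the ligand carrier, averaged 160.9 at day 0 and 2285 at day 4 in WT (3.82 ± 0.11, limma adjusted p 3.56e-12), and 536 and 541.5 in KO. The interaction for Wls was −3.81 (adjusted p 3.19e-10). Wnt8a, a ligand of the early streak, rose by 4.36 ± 0.31 (adjusted p 2.64e-08). Wnt2 was at 0 at WT day 0 and 67.0 ± 21.3 (SD, n = 2) at day 4, at least 41.1-fold higher at a floor of 3 reads over the group. The mesoderm transcription factor gene T rose by 7.14 (adjusted p 8.03e-11), Fzd7 by 1.33 (adjusted p 9.42e-10) and Ror1 by 2.51 (adjusted p 1.22e-08). Rspo3, a secreted enhancer of WNT signalling, held 3 reads over the day 0 libraries and 1174 at day 4 in WT, a ratio of 339.6 with a counting interval of 115.9 to 1649. Notum, by contrast, fell by 2.27 in WT (adjusted p 2.04e-07).

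In KO EBs, 29.1% of all tested genes rose by day 4 and 30.9% fell. Among the lists, 2 of 9 other ligands rose and 2 fell, 7 of 18 receptors rose and 2 fell, and 5 of 14 β-catenin targets rose and 4 fell, so the ligands and the receptors were called at shares below the 60.0% of all genes. Among the genes that rose in KO were Tcf7 (1.97, limma adjusted p 1.44e-10), Lef1 (2.38, adjusted p 2.79e-10), Rnf43 (2.92, adjusted p 1.55e-06) and the Frizzled-related inhibitor Sfrp2 (2.00, adjusted p 1.17e-09). Fzd5 (−1.95, adjusted p 1.12e-09) and Sfrp1 (−1.61, adjusted p 1.63e-09) fell. Compared at day 4, 8 of 9 other ligands and 9 of 14 β-catenin targets were lower in KO than in WT and 1 of each was higher, with medians of −2.44 and −1.73, where 28.4% of all tested genes were lower and 27.8% higher. Wnt2b differed by −3.38 (adjusted p 1.56e-05), Apcdd1 by −3.72 (adjusted p 8.47e-10) and Tmed2 by −0.83 (adjusted p 2.72e-06). Lgr5, a receptor for R-spondins, held 543 reads over the WT libraries against 2 over the KO libraries, a ratio of 243.9 (67.2 to 2019).

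In the organoids, each list had from 0 to 2 genes past 2-fold upward in the TGFβ comparisons, and 1 target gene with dox, Tnfrsf19, was past it downward (−1.04, named after its value was seen), where 3.56% and 3.52% of all genes were past 2-fold upward and 2.85% and 3.24% downward without and with dox. Wnt16, a ligand with 971.7 and 958.1 in the no dox SB and TGFβ libraries, held 121.3 and 115.4 with dox. Wnt11 was 36.3 and 42.02 without dox and 5.21 and 38.5 with dox. Ror1 was higher under TGFβ in both states, at 45.8 and 133 without dox and 17.9 and 66.8 with dox. Lgr6 (156 and 549.5, then 89.3 and 275) and the feedback gene Nkd2 (20.7 and 69.3, then 6.70 and 48.7) showed the same order. With dox, Notum was higher, at 268 and 237 without and 980 and 532 with it. Porcn, the ligand acyltransferase, was lower with dox, at 374 and 815 without and 287 and 365.5 with it. Lower with dox were also Fzd2 (824 and 1382, then 336 and 759), Lgr5 (2977 and 2861, then 1280 and 1741) and the target gene Sp5 (1671 and 1357, then 565 and 359).

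Genes whose profile was most like that of the member with the widest range of group means were taken by Pearson correlation of log2(value + 1) over the 8 libraries of a table, among genes with a mean of at least 50. These are descriptions over 8 libraries that fall into 4 groups. In PDA cells, where that member was Wnt9a, the closest of 11213 genes were Fam210b (r = 0.9965), Rgs12 (0.9952), Jun (0.9915), Klf10 (0.9915) and Pask (0.9906). In the EBs, where it was Wnt3, the closest of 12261 genes were Snai1 (0.9943), Smarca2 (0.9926), Farp1 (0.9926), Gpc6 (0.9922) and Kbtbd7 (0.9913).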

How the data were processed

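RNA-seq was measured in 20 libraries (TruSeq v2, a kit that keeps no strand, RNA integrity above 9.5, per the labels' protocols). The deposited signal was 1 normalized count per gene and library, in 3 tables normalized separately. Tools named in the submitters' processing notes, without roles, are HTSeq 0.6.1p1, Bowtie2, DESeq2 3.4, HOMER and FastQC 0.11.5, with the mm10 build. Within a library, 100% of deposited values were whole multiples of 1 step (tolerance 0.001), and the reads so recovered gave depths, counting intervals and RPM (reads per 1 M). Genes at 10 or more in at least 2 of 8 libraries were fitted with limma 3.58.1 (R 4.3.3, trend option) on log2(value + 1), in 4 groups of 2 libraries, with two-sided p-values adjusted by Benjamini-Hochberg over all tested genes and a threshold of 0.05. Organoid genes needed a mean of 10 and had no test. The fit was tested on simulated data.

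The members, lists and tests were chosen with earlier results of these data known. Named were all members, Rreb1, up to 3 genes per list and table with the smallest adjusted p (organoids, 2 by size of ratio) and the 5 genes most like 1 member. Wnt9b, Fbxl14 and AU022754 were chosen after their values were seen. Alternatives were other pseudocounts, filters and scalings, edgeR 4.0.16 and DESeq2 1.42.0 on recovered PDA reads, a replicate block and leaving out each library, where a lone library is assumed to vary like the other groups.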

Additional observations from a re-analysis of the deposited data

Results flagged for a closer look

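The change with treatment or time differed between WT and KO, by limma's test of that difference, for 10 member results. In PDA cells these were 2 of 6 tested members, against 21.8% of all tested genes. In EBs they were 8 of 9, against 55.7%. For Wnt9a in EBs the call was lost without a filter (limma adjusted p 0.0564) and without some single libraries. In PDA cells, the KO response to TGFβ minus the WT response was −0.85 for Wnt7a and −2.08 for Wnt10a on the log2 scale. In EBs, the KO change from day 0 to day 4 minus the WT change was −4.88 for Wnt3, −2.74 for Wnt3a, −2.57 for Wnt4, −3.06 for Wnt5a, −2.65 for Wnt5b, −2.66 for Wnt6, −2.10 for Wnt7b and −0.97 for Wnt9a.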

How the results depend on the processing

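Of the called member values under the alternatives, 804 kept their direction and side of the threshold, 48 kept only the direction and 0 changed sign. Of the uncalled ones, 300 kept both, 16 gained a call and 27 changed sign. Part of these counts was fixed in advance. A replicate block, or leaving out a library of a group outside the comparison, can move the p-value but not the log2 difference. Members called in WT PDA cells under TGFβ (5) ranged from 1 to 5 when a library was left out. In KO EBs over time the count went from 4 to 2 among genes with a mean of at least 50, since fewer members were tested. Signs turned only in uncalled values. In the PDA interaction these were Wnt4 with DESeq2 (0.06) and Wnt9a with a pseudocount of 5 (−0.09) and edgeR (−0.03). For KO against WT under SB, Wnt7a gave −0.03 on rescaling and −0.01 with quantile normalization. Quantile normalization in EBs gave −0.13 for Wnt9a in KO over time, 0.38 for Wnt7a at day 0, and 0.12, 0.03 and 0.04 for Wnt7a, Wnt7b and Wnt9a at day 4. Leaving out a library gave −0.19 to 0.07 for Wnt5a in WT PDA cells, and −0.74 to 0.47 for Wnt4 and −0.14 to 0.15 for Wnt9a in the PDA interaction. In EBs it gave −0.64 to 0.13 for Wnt5b and −0.32 to 0.37 for Wnt9a in KO over time, −2.21 to 0.09 for Wnt7a in the interaction, −0.48 to 0.45 for Wnt7a at day 0, and −2.23 to 0.08, −0.43 to 0.11 and −0.54 to 0.15 for Wnt7a, Wnt7b and Wnt9a at day 4. The cause was not tested.

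Replicate numbers did not pair the libraries, with correlations of deviations from −0.51 to 0.14 in PDA cells and −0.03 to 0.09 in EBs. The fit with the replicate block changed only the call of Wnt4 in WT PDA cells (adjusted p 0.075, 4 members called) and left the other member counts as they were. A crossed block, chosen after seeing the data, called 5, 6, 3, 5 and 6 members in the 5 PDA comparisons.

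Counts over all genes moved too. Without WT TGFβ replicate 1 or 2, the 4887 genes called in WT PDA cells became 2254 or 2286, the 2886 of the interaction 764 or 827, and the 5316 between genotypes under TGFβ 3212 or 3266. Without KO SB replicate 1 or 2, the 5113 called in KO cells became 2956 or 3148 and the interaction 940 or 1188. The replicate block gave 1596 for the interaction. Rescaling to the same total moved the split of higher and lower calls from 2731 and 2382 to 3830 and 1802 in KO PDA cells under TGFβ, from 1284 and 1602 to 1869 and 1388 in the interaction, from 3828 and 3600 to 2975 and 4901 between genotypes under SB, from 2808 and 2508 to 2360 and 3305 under TGFβ, and from 4236 and 4319 to 3428 and 5331 at EB day 4, with all-gene medians of 0.13, 0.06, −0.16, −0.10 and −0.11. Tests on read counts were not run on the EBs, since a check of whole reads refused WT day 0 replicate 1, where 1 read was worth 0.992. Recovered reads of that library were still used for depth, RPM and counting intervals. With 2 libraries a group and low counts for Wnt3a, Wnt7a and PDA Wnt4, smaller differences were not detectable.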
